A study of Mus musculus with 8 samples.

Results

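Autophagy is the route by which a cell encloses cytoplasm, organelles or protein aggregates in a double membrane and delivers them to the lysosome. The genes described here are 10 core components of that route: the kinase gene Ulk1, Becn1 and Uvrag of the lipid kinase complex, the lipid-binding effector Wipi1, the conjugation genes Atg5 and Atg7, the Atg8-type genes Map1lc3b, Gabarap and Gabarapl2, and the receptor gene Sqstm1. They were found by gene symbol in the annotation of an oligonucleotide array, and 8 of the 10 had at least 1 probe set that listed that gene alone. All 8 passed the filter on dim signal described below and stand among 11413 genes tested in all. No probe set carried the name Map1lc3b, and the only probe set of Sqstm1 listed a second gene as well, so neither has a value here.

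The samples were regulatory T cells, a CD4 lineage that holds immune responses in check, sorted as CD4+CD25+ cells from spleen and peripheral lymph nodes of mice on a C57Bl/6J background and lysed without treatment, with 1 array per sample. There were 4 samples from CD4(cre)Raptor(fl/fl) mice, called RaptorKO, in which the Cre recombinase expressed under Cd4 control deletes the floxed gene of Raptor, and 4 from wild-type mice, called WT. The labels do not say whether WT mice carried Cre, do not give the age or sex of the mice, and do not say whether each sample was 1 mouse or a pool, so the p-values below cover only how far these samples scattered, some of which may be technical. Cd4-driven Cre acts in thymocytes that give rise to both CD4 and CD8 T cells, so the regulatory T cells came from mice in which other T cells carry the deletion too. A CD4+CD25+ gate can also hold activated conventional CD4 T cells.

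Raptor is the scaffold of mTORC1, a kinase complex that is active when nutrients and growth signals are ample. In mammalian cells mTORC1 restrains autophagy in part by phosphorylating ULK1, and it keeps the transcription factor TFEB, which drives lysosomal and some autophagy genes, out of the nucleus. Once ULK1 is active, the Beclin 1 complex makes the lipid PI3P on the forming membrane, WIPI proteins bind that lipid, and a conjugation cascade that needs ATG7 and ATG5 attaches Atg8-type proteins to the membrane, where receptors such as p62, encoded by Sqstm1, dock. The arrays measured transcripts only, and neither the phosphorylation nor the lipid conjugation steps of this route.

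Values are log2 intensities made by the authors with the robust multi-array average (RMA), and a difference of 1 on this scale is a doubling of signal. Array medians lay between 5.21 and 5.29, and correlations between arrays over all probe sets lay between 0.979 and 0.993. The labels could be set against marker genes: Foxp3, the factor that defines regulatory T cells, read between 10.96 and 11.04 in RaptorKO and between 10.79 and 10.96 in WT. Of 7 regulatory T cell markers, Foxp3 among them, 4 averaged higher in RaptorKO and 3 lower. The groups did not overlap for Ikzf2 (difference 0.21), Ctla4 (-0.32) and Cd4 (-0.22), as for 8.82% of all tested genes. Their adjusted p was 0.342, 0.169 and 0.362 (limma), so none of them passed the test. Rptor itself differed by -0.23 (SE 0.12), which did not pass the test (limma, adjusted p = 0.491), and where its probes lie relative to the deleted part is not known here. Sex-linked transcripts divided the arrays of both genotypes into replicates 1 and 2, with Xist at 10.88 or above, and replicates 3 and 4, with Xist at 5.62 or below. The Y-linked Kdm5d read 3.74 to 4.39 on replicates 1 and 2 and 8.22 to 8.51 on replicates 3 and 4. Uty and Eif2s3y divided the arrays in the same way. Replicates 1 and 2 thus had a female and replicates 3 and 4 a male pattern, so the members' differences are also shown within these sets. Markers of other cells that a sort can hold were also read. Of 10 macrophage markers 8 averaged higher in RaptorKO, with a list mean of 4.99 to 5.49 on RaptorKO arrays and 4.62 to 5.28 on WT arrays, and 3 of the 10, Adgre1, Cd14 and Itgam, were too dim for the filter. Both CD8 T cell markers averaged lower in RaptorKO (6.08 to 7.03, against 6.32 to 8.07 in WT). The B cell list mean was 5.62 to 6.10 in RaptorKO and 5.04 to 6.26 in WT, its highest value being on WT 2. Of the 4 erythroid markers 2 had a probe set, Hba-a1 and Alas2, and their mean was 6.84 to 7.25 in RaptorKO and 6.04 to 7.17 in WT. The list means of dendritic, NK and neutrophil markers overlapped between the groups as well. Of the markers with a probe set, 1 of 4 dendritic, 2 of 5 NK, 2 of 4 neutrophil and 4 of 6 B cell markers passed the filter. The others were too dim and were not tested. No tested marker in these lists passed the test. In bulk samples, fewer cells of a type and less RNA per cell cannot be told apart.

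None of the 8 measured autophagy genes passed the test between genotypes, in either direction (limma over 11413 genes, Benjamini-Hochberg adjusted p under 0.05; 1.96% of all tested genes passed, 0.824% higher and 1.14% lower). At an unadjusted p under 0.05 there were 2 of 8, Gabarap and Ulk1, against 13.0% of all tested genes. The groups did not overlap in 1 of 8, Gabarap, against 8.82% of all tested genes. Differences ran from -0.25 to 0.47 with standard errors of 0.10 to 0.18, 5 were negative and 3 positive, and the median was -0.086, beside -0.0092 and 52.4% negative over all tested genes. The smallest adjusted p was 0.0855, for Gabarap.

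**Figure D1:**
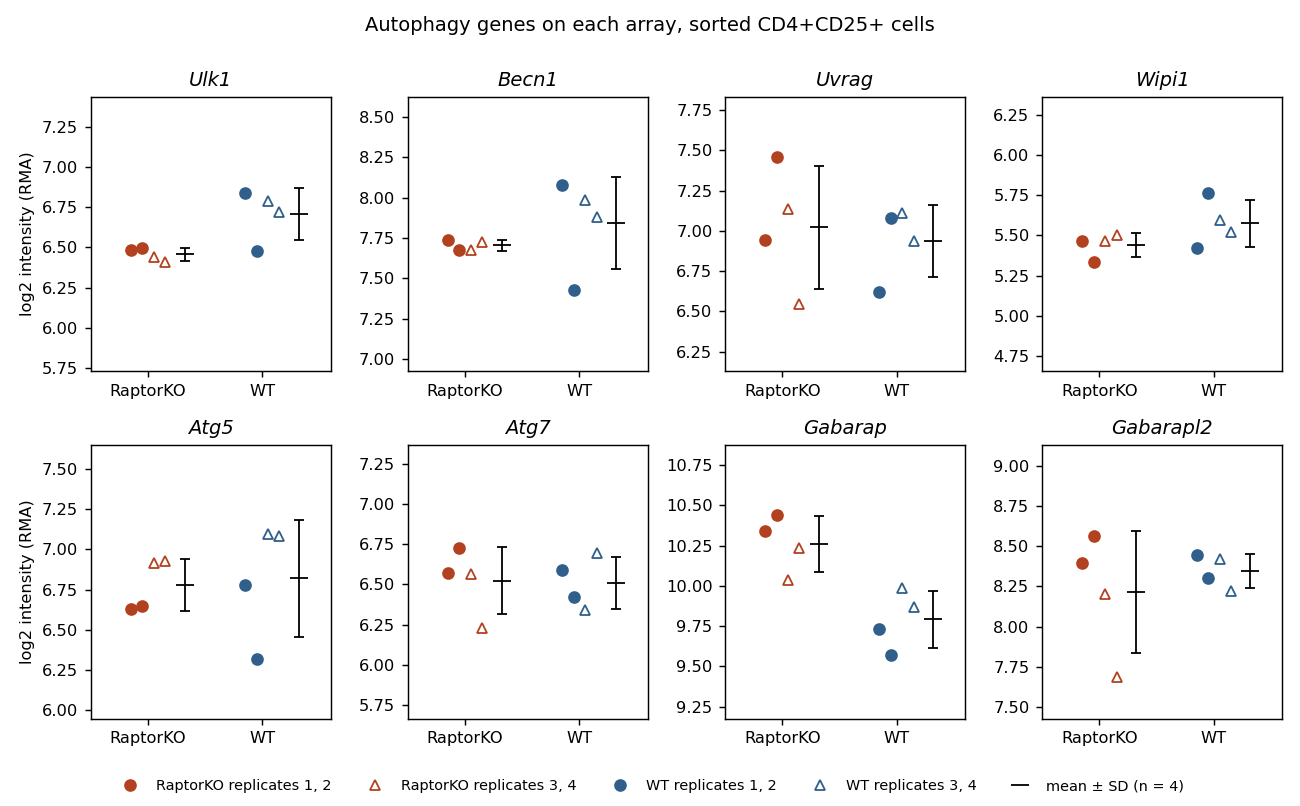
Log2 RMA intensity of 8 autophagy genes on each array, with 4 RaptorKO arrays left of 4 WT arrays in every panel, filled circles for replicates 1 and 2, open triangles for replicates 3 and 4, and black bars for the mean and SD; every panel spans the same height on the log2 axis. Only in the Gabarap panel do all 4 RaptorKO arrays, 10.04 to 10.44, lie above all 4 WT arrays, 9.57 to 9.99.

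The Atg8-type genes gave the highest single difference of the set. Gabarap, which encodes a small ubiquitin-like protein that is joined to the autophagosome membrane and also takes part in receptor trafficking, read 10.34, 10.44, 10.04 and 10.23 in RaptorKO 1 to RaptorKO 4, against 9.73, 9.57, 9.99 and 9.87 in WT 1 to WT 4. Each RaptorKO array was brighter than each WT array, with the lowest RaptorKO array and the highest WT array separated by a small step. The mean was 10.26 ± 0.17 in RaptorKO and 9.79 ± 0.18 in WT (SD, n = 4 each), a difference of 0.47 (SE 0.12, 95% interval 0.20 to 0.74) or 1.38-fold, with an unadjusted p = 0.00259 and an adjusted p = 0.0855 in limma, so it did not pass. It ranked 346th of the tested genes by p. With quantile normalization it passed (0.51, adjusted p = 0.0334), and so it did with an intensity trend in the variance model (limma, adjusted p = 0.0188). Without WT 1 the adjusted p was 0.226, the highest when a single array was left out.

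Gabarap differed by 0.74 within replicates 1 and 2 and by 0.20 within replicates 3 and 4. The test of that gap gave an unadjusted p = 0.022 and an adjusted p = 0.38 (limma interaction), and 11.4% of all tested genes had an unadjusted interaction p under 0.05. The macrophage list mean was 4.99, 5.09, 5.46 and 5.49 in RaptorKO 1 to RaptorKO 4. In WT 1 to WT 4 it was 4.62, 4.90, 5.28 and 5.22. Within each replicate set both RaptorKO arrays were above both WT arrays, for this mean and for Gabarap. Between the sets, the macrophage mean was lower on RaptorKO 1 and 2, where Gabarap was highest, than on RaptorKO 3 and 4. Its lowest WT values were on WT 1 and 2, where Gabarap was lowest. The erythroid list mean was 6.89, 7.25, 6.84 and 7.22 in RaptorKO 1 to RaptorKO 4. In WT 1 to WT 4 it was 6.04, 6.39, 6.55 and 7.17. Both this mean and Gabarap were highest on RaptorKO 2 and lowest on WT 1 and WT 2. Within replicates 1 and 2 the erythroid mean was higher on both RaptorKO arrays than on both WT arrays. Within replicates 3 and 4 it was 6.84 and 7.22 in RaptorKO and 6.55 and 7.17 in WT, so the groups overlapped there. The 2 erythroid markers with a probe set differed in sign. The globin gene Hba-a1 differed by 1.10 (SE 0.35, adjusted p = 0.159, limma) and Alas2 by -0.079 (SE 0.14, adjusted p = 0.897, limma). Hbb-b2, a globin gene outside the list that was named after its values were seen, differed by 1.22 (SE 0.32, adjusted p = 0.0821, limma). The part of other cells in the Gabarap difference was not tested. Gabarap was measured by 1 probe set, so no second probe set bears on it.

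Gabarapl2, also called GATE-16, encodes a close relative that acts late in the sealing of the autophagosome. It read 8.40, 8.56, 8.20 and 7.69 in RaptorKO 1 to RaptorKO 4 and 8.44, 8.30, 8.42 and 8.22 in WT 1 to WT 4. RaptorKO 4 was the lowest of the 8 arrays and RaptorKO 2 the highest, so the RaptorKO values enclosed all WT values. The means were 8.21 ± 0.38 in RaptorKO and 8.35 ± 0.10 in WT (SD, n = 4 each), a difference of -0.13 (SE 0.16, adjusted p = 0.832, limma). Without RaptorKO 4 the difference was 0.041. The difference between the changes of Gabarap and Gabarapl2 was not tested.

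The sequence upstream of Gabarap is shown because this was the only member whose groups did not overlap, and stretches of Atg5 and Atg7 because these were the only member windows with the letters CACGTG, the core of the E-box to which TFEB and related factors bind. The windows are the 250 bases before the annotated start in RefSeq (GRCm38.p6), in which 9 of the 10 members matched; Becn1 did not. Capitals mark CACGTG, which reads the same on both strands. The Gabarap window lies at chr11:69991120-69991369 on the plus strand, the Atg5 stretch at chr10:44268305.0-44268338.0 on the plus strand and the Atg7 stretch at chr6:114670944.0-114670989.0 on the plus strand.
Gabarap: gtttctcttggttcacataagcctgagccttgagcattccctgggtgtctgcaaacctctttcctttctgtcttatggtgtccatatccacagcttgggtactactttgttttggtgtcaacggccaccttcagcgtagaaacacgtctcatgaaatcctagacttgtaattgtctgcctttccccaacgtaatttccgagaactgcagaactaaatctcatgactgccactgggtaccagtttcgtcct
Atg5: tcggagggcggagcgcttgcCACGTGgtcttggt
Atg7: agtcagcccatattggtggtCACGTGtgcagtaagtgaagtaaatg
The E-box letters begin 14 bases before the start of Atg5 and 132 bases before that of Atg7. Of all 32851 windows of this length 6.02% held CACGTG. The longer form TCACGTGA, which holds CACGTG within it, was in 0.785% of all windows and in 0 of the 9 member windows. A match describes letters in this window and is not a measured binding site.

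Upstream in the route, Ulk1 was the other member with an unadjusted p under 0.05. Ulk1 encodes the initiating kinase, a direct substrate of mTORC1. It read 6.48, 6.50, 6.44 and 6.41 in RaptorKO 1 to RaptorKO 4 and 6.84, 6.48, 6.79 and 6.72 in WT 1 to WT 4. The 4 RaptorKO arrays lay close together, and WT 2 lay among them while the other WT arrays were brighter. The means were 6.46 ± 0.040 in RaptorKO and 6.71 ± 0.16 in WT (SD, n = 4 each), a difference of -0.25 (SE 0.10, 95% interval -0.48 to -0.022, unadjusted p = 0.0344, adjusted p = 0.322, limma). A dimmer Ulk1 probe set averaged higher in RaptorKO, with 6.51 ± 0.29 in RaptorKO and 6.41 ± 0.11 in WT (difference 0.10, limma over every probe set, adjusted p = 0.85). With the mean of both probe sets the Ulk1 difference was -0.073 (limma, adjusted p = 0.815).

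WT 2 was the lowest WT array for 4 of the 8 members, Ulk1, Becn1, Atg5 and Gabarap, and for 36.7% of all tested genes. It also had the highest values of both CD8 T cell markers among the 8 arrays. Without WT 2 the difference was -0.32 for Ulk1 (adjusted p = 0.157), -0.28 for Becn1 (adjusted p = 0.254) and 0.40 for Gabarap (adjusted p = 0.184, limma); whether the other cell markers on WT 2 bear on these values was not tested.

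Becn1 and Uvrag encode subunits of the complex that makes PI3P. Becn1, the Beclin 1 gene, read 7.74, 7.68, 7.68 and 7.73 in RaptorKO 1 to RaptorKO 4, against 8.08, 7.43, 7.99 and 7.88 in WT 1 to WT 4. The RaptorKO arrays again lay close together, below 3 of the WT arrays and above WT 2. The difference was -0.14 (SE 0.13, adjusted p = 0.765, limma), with means of 7.70 ± 0.033 in RaptorKO and 7.84 ± 0.29 in WT (SD, n = 4 each). The other Becn1 probe sets also averaged lower in RaptorKO. The second read 6.86 ± 0.15 in RaptorKO and 7.28 ± 0.34 in WT (difference -0.42, unadjusted p = 0.0245, limma over every probe set, adjusted p = 0.281). The dimmest read 4.71 ± 0.11 in RaptorKO and 4.91 ± 0.19 in WT (difference -0.20, limma over every probe set, adjusted p = 0.548). Averaged over its probe sets the Becn1 difference was -0.25 (limma, adjusted p = 0.314). The standard deviation was smaller in RaptorKO for 5 of the 8 members and for 35.2% of all tested genes.

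Uvrag, whose product joins Beclin 1 in a complex that acts in autophagosome maturation and endosome traffic, had the widest spread of the tested members in RaptorKO. It read 6.95, 7.46, 7.13 and 6.55 in RaptorKO 1 to RaptorKO 4 and 6.62, 7.08, 7.11 and 6.94 in WT 1 to WT 4. The RaptorKO values reached above and below all WT values. The difference was 0.083 (SE 0.18, 95% interval -0.31 to 0.47, adjusted p = 0.918, limma); replicates 1 and 2 alone gave 0.35, and replicates 3 and 4 alone gave -0.18.

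Wipi1, which encodes a beta-propeller protein that reads PI3P on the forming membrane, read 5.47, 5.33, 5.47 and 5.50 in RaptorKO 1 to RaptorKO 4 and 5.42, 5.76, 5.60 and 5.52 in WT 1 to WT 4. The groups overlapped, with WT 2 the brightest. The difference was -0.13 (SE 0.10, adjusted p = 0.683, limma). Wipi1 had 6 probe sets, 4 of them too dim for the filter on all 8 arrays. The second one that passed averaged 4.88 ± 0.25 in RaptorKO and 4.59 ± 0.49 in WT (difference 0.30, limma over every probe set, adjusted p = 0.655), so the brighter and the dimmer probe set differed in sign.

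**Figure D2:**
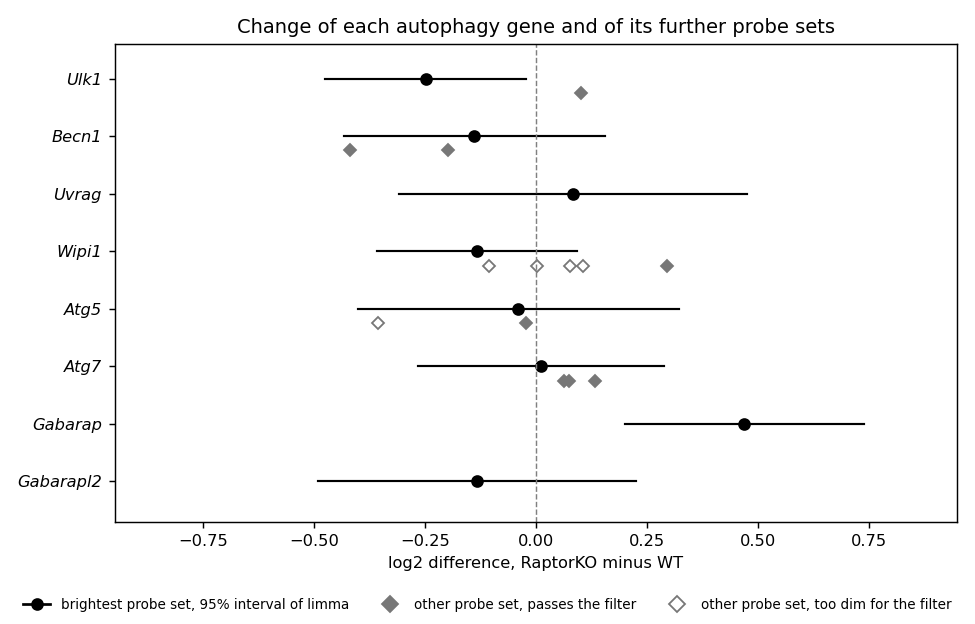
Log2 difference of RaptorKO minus WT for 8 autophagy genes: black points are the brightest probe set with the 95% interval from limma, grey diamonds are further probe sets of the same gene, open where they were too dim for the filter. The intervals of Ulk1 (-0.48 to -0.022) and Gabarap (0.20 to 0.74) lie on 1 side of 0 before adjustment over all genes, and the second Ulk1 probe set lies on the other side.

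Neither conjugation gene separated the genotypes. Atg7 encodes the E1-like enzyme that activates both ATG12 and the Atg8-type proteins. It read 6.57, 6.72, 6.57 and 6.23 in RaptorKO 1 to RaptorKO 4, against 6.59, 6.42, 6.34 and 6.70 in WT 1 to WT 4. The groups overlapped over most of their range, with a difference of 0.011 (SE 0.13, 95% interval -0.27 to 0.29, adjusted p = 0.985, limma). The other 3 Atg7 probe sets differed by 0.063 to 0.13, with adjusted p from 0.809 to 0.896 in limma over every probe set, and averaged over all of them the Atg7 difference was 0.070 (limma, adjusted p = 0.796).

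Atg5, whose product is joined to ATG12 and directs lipidation of the Atg8-type proteins, read 6.63, 6.65, 6.91 and 6.93 in RaptorKO 1 to RaptorKO 4 and 6.78, 6.32, 7.09 and 7.08 in WT 1 to WT 4. In both genotypes the arrays of replicates 3 and 4 were brighter than those of replicates 1 and 2. The difference between genotypes was -0.040 (SE 0.17, 95% interval -0.40 to 0.32, adjusted p = 0.956, limma), and the second probe set of Atg5 differed by -0.022 (limma over every probe set, adjusted p = 0.97). The dimmest Atg5 probe set, above the filter's percentile on 2 arrays only, was not tested; it averaged 4.42 ± 0.35 in RaptorKO and 4.78 ± 0.26 in WT (SD, n = 4 each), a difference of -0.36. Averaged over all probe sets the Atg5 difference was -0.14 (limma, adjusted p = 0.73).

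**Figure D3:**
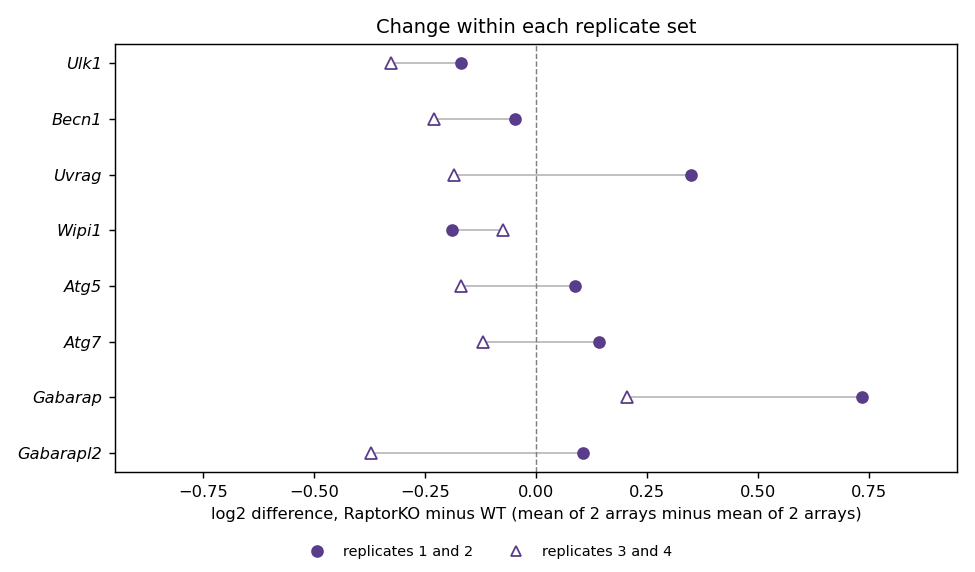
Log2 difference of RaptorKO minus WT for 8 autophagy genes within replicates 1 and 2 (filled circles) and within replicates 3 and 4 (open triangles), each the mean of 2 arrays minus the mean of 2 arrays. For 7 of the 8 genes, all but Wipi1, the circle lies to the right of the triangle, as it does for 61.1% of all tested genes.

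The change was higher within replicates 1 and 2 than within replicates 3 and 4 for 7 of the 8 members, all but Wipi1, against 61.1% of all tested genes. The members' median was 0.098 in replicates 1 and 2 alone and -0.18 in replicates 3 and 4 alone, beside 0.021 and -0.041 over all tested genes. Gabarap was the single member with an unadjusted interaction p under 0.05, and for no member did the interaction pass (limma; 0 of 11413 genes passed). Ulk1, Becn1 and Wipi1 averaged lower in RaptorKO in both sets, Gabarap averaged higher in both, and Uvrag, Atg5, Atg7 and Gabarapl2 had opposite signs in the sets.

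The pathway's other genes were taken by role: of 55 listed, 49 had a single-gene probe set and 47 passed the filter. Of these 47, 0 passed the test in either direction (limma), 6 had an unadjusted p under 0.05 (12.8%, against 13.0% of all tested genes) and 6 had groups that did not overlap (12.8%, against 8.82%). The median difference was -0.066 with 29 negative (61.7%, against 52.4% of all tested genes). By step, the medians were 0.023 for 4 genes of the initiation complex, -0.092 for 7 of the lipid kinase complex and its partners, -0.14 for 7 PI3P effectors and lipid transfer proteins, -0.021 for 8 of conjugation, -0.12 for 9 receptors and -0.011 for 12 of fusion with the lysosome. For 34 of the 47 the change was higher within replicates 1 and 2 than within replicates 3 and 4, against 61.1% of all tested genes. The median over the 47 was 0.060 in replicates 1 and 2 alone and -0.14 in replicates 3 and 4 alone.

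Retreg1, a receptor for autophagy of the endoplasmic reticulum, had the smallest p of the 47. It read 8.09, 8.18, 8.14 and 8.10 in RaptorKO 1 to RaptorKO 4, against 8.73, 8.34, 8.48 and 8.46 in WT 1 to WT 4. All RaptorKO arrays lay below all WT arrays, with a difference of -0.37 (SE 0.10, 95% interval -0.60 to -0.14, adjusted p = 0.112, limma). Its difference was -0.40 in replicates 1 and 2 alone and -0.35 in replicates 3 and 4 alone.

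Tecpr1, whose product tethers autophagosomes to lysosomes, averaged 8.63 ± 0.091 in RaptorKO and 8.97 ± 0.17 in WT (SD, n = 4 each). Here too the groups did not overlap (difference -0.34, SE 0.11, adjusted p = 0.175, limma). Tollip, a ubiquitin-binding adaptor, averaged higher in RaptorKO without overlap, with 7.41 ± 0.055 in RaptorKO and 7.15 ± 0.11 in WT (SD, n = 4 each; difference 0.26, adjusted p = 0.233, limma). Averaged over the probe sets of Tollip the difference was 0.046 (limma, adjusted p = 0.903). Plekhm1, an adaptor that links Rab7 and the tethering complex, averaged 6.98 ± 0.14 in RaptorKO and 7.23 ± 0.10 in WT (difference -0.25, adjusted p = 0.328, limma). Atg12 (-0.26) and Wdr45b (-0.22), a conjugation partner of ATG5 and a PI3P-binding relative of WIPI1, were the remaining genes without overlap and were named after their values were seen.

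**Figure D4:**
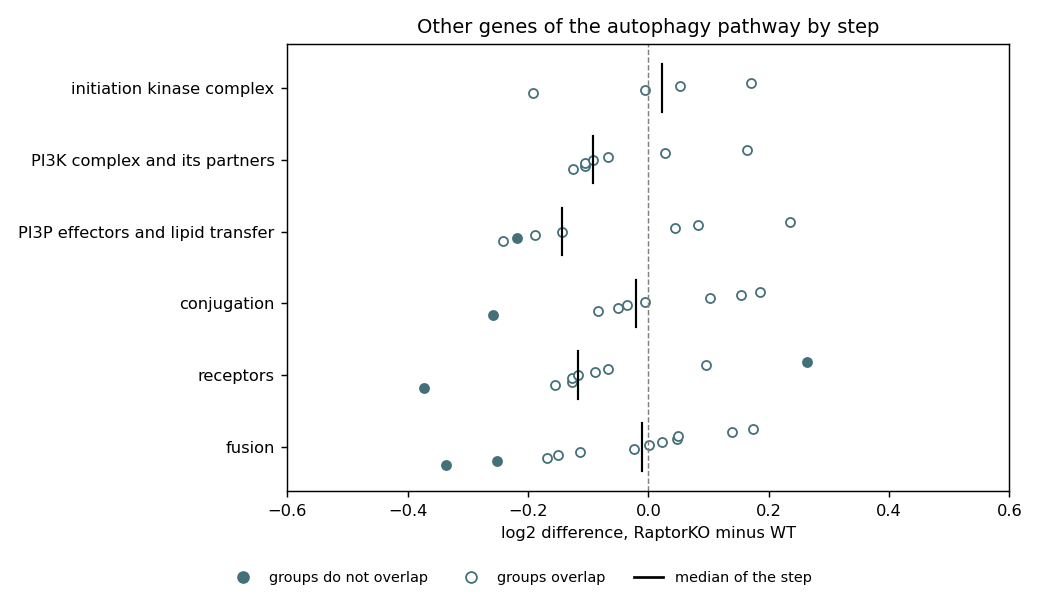
Log2 difference of RaptorKO minus WT for 47 further autophagy genes, 1 point a gene, arranged by step of the route, filled where the 4 RaptorKO and 4 WT arrays did not overlap and with a bar at the median of each step. Points run from -0.37 (Retreg1) to 0.26 (Tollip), and 6 are filled.

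The genes whose profiles lay closest to those of Gabarap and Ulk1 were found by the root mean square difference between log2 profiles over the 8 arrays, each centred on its own mean. For Gabarap, whose values spanned 0.86, they were Snhg6 (0.071), Bri3bp (0.074) and Plp2 (0.082). For Ulk1, whose values spanned 0.43, they were Dcaf11 (0.044), Pstpip1 (0.045) and Xrn2 (0.057). None of these 6 genes passed the test between genotypes, and Snhg6 had the smallest adjusted p among them (difference 0.49, adjusted p = 0.0569, limma). Because they were picked for likeness over the same 8 arrays, a genotype difference near that of the member follows from the choice.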

How the data were processed

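The deposited values are log2 intensities per probe set, made with RMA per the submitters' processing notes, with no version given in the sources used here; per the labels' protocols, total RNA was amplified into biotinylated cDNA. RMA as usually run equalizes arrays, so a shift in total RNA could not be seen. The number of arrays limits the precision.

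Of 45141 probe sets, 28898 listed 1 gene, 551 several and 15692 none; 28689 of the single-gene probe sets matched a current symbol through Entrez identifiers (RefSeq gene table, GRCm38.p6). The single-gene probe set with the highest mean represented each of 17097 genes and was tested if above its array's 40th percentile (4.69 to 4.81) on at least 4 arrays. RaptorKO and WT, 4 arrays each, grouped by sample title, were compared with limma 3.58.1 in R 4.3.3 (lmFit, eBayes, no covariates), with Benjamini-Hochberg adjustment over all 11413 tested genes and a threshold of 0.05. The interaction of genotype with replicate set used the same tools.

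Named were all members, the 4 other autophagy genes with the smallest p, Rptor, and the 3 genes nearest to each of the 2 members with the smallest p. Members, lists and tests were chosen with earlier results of these data known. The alternatives were a replicate block, other probe set rules and filters, quantile normalization, median centring, an intensity trend, array weights, replicate sets and leaving out each array. Scripts were tested on simulated data. Plots used matplotlib 3.10.9 (Python 3.11.15).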

Additional observations from a re-analysis of the deposited data

How the results depend on the processing

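Of 20 alternatives, 18 gave 0 called members, and quantile normalization and the intensity trend gave 1 each, Gabarap; the other autophagy genes had 0 called in all 20. Leaving out each array in turn gave 0 for both in every case. Whether replicate numbers pair the samples is not known here. Same-numbered deviations from the group means correlated at 0.16, -0.15, 0.11 and 0.026 for replicates 1 to 4, which cannot decide it with so few arrays. With the replicate block 0 members were called (Gabarap adjusted p = 0.19, limma), and all called genes numbered 175 against 224. Over the alternatives the limma adjusted p ran from 0.0188 to 0.472 for Gabarap and from 0.157 to 0.815 for Ulk1, with no change of sign.

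For 4 members the difference changed sign under at least 1 alternative, all with values that did not pass. Within replicates 1 and 2 the differences were 0.088 for Atg5 and 0.11 for Gabarapl2, and within replicates 3 and 4 they were -0.18 for Uvrag and -0.12 for Atg7. With array weights Atg7 differed by -0.017. Atg5 differed by 0.0089 without RaptorKO 1, 0.0042 without RaptorKO 2, 0.051 without WT 3 and 0.048 without WT 4. Atg7 differed by -0.0039 without RaptorKO 1, -0.056 without RaptorKO 2, -0.0032 without RaptorKO 3, -0.019 without WT 2 and -0.046 without WT 3. Uvrag differed by -0.063 without RaptorKO 2 and -0.022 without WT 1, and Gabarapl2 by 0.041 without RaptorKO 4. The highest Uvrag difference without an array was 0.24 (RaptorKO 4), and the lowest were -0.21 for Atg5 (WT 2) and -0.25 for Gabarapl2 (RaptorKO 2). The cause was not tested. Averaged over its probe sets Wipi1 was under the filter, as it was with the 60th percentile, and was not tested there.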
